A study of Mus musculus with 18 samples.

Results

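Collagen chain genes encode the chains that wind into the collagen triple helix, the main structural protein of the extracellular matrix. They were taken as every gene symbol made of Col, a type number, the letter a and a chain number, kept where the FPKM (fragments normalized to gene length and library size) reached 1 in 3 or more of the 18 samples. The rule left 31 of 44 such symbols, out of 24338 gene symbols that the tissue and culture tables share. The 31 comprised 11 fibrillar chains, 5 chains of basement membranes (types IV, XV and XVIII), 5 fibril-associated chains and 10 others. Fibrillar collagens (types I, II, III, V and XI among them) assemble into the banded fibrils that carry tension, and type V and XI chains set the diameter of those fibrils. Type IV collagen forms the sheet-like network of basement membranes, which in fat surround every adipocyte and every capillary. Fibril-associated collagens sit on the surface of fibrils, and type VI collagen forms beaded filaments that are abundant around fat cells.

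Polyadenylated RNA was sequenced from inguinal white adipose tissue (iWAT), the subcutaneous depot of the mouse groin, and from cells grown from the stromal-vascular fraction of that depot (ingSVF-derived adipocytes). Both kinds of sample were wild type (WT) or NFIA-Tg, the label for mice or cells with a transgene for nuclear factor I A, a transcription factor; the sources used here do not name the transgene's promoter or the age and sex of the mice. Samples of the cultures were taken at day 0 and at day 7. The labels' protocol gave confluent cells isobutylmethylxanthine, indomethacin, dexamethasone, insulin, T3 and rosiglitazone for 48 hours, followed by insulin, T3 and rosiglitazone alone. The 6 groups held 3 samples each, and no label says whether these came from separate mice or cultures, so the p-values rest on a spread between samples that may be technical only. Tissue and cultures were normalized in separate tables, and levels are therefore tested only within one or the other.

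The targeted gene matched its label in tissue and at day 0 but not at day 7. Nfia stood at 3.73, 4.19 and 3.94 FPKM in WT iWAT against 166, 99.6 and 157 in NFIA-Tg iWAT. At day 0 it stood at 6.42, 6.3 and 6.51 in the WT cultures and at 11.3, 12.5 and 11.9 in those labelled NFIA-Tg. The order turned round at day 7, with 12.5, 13 and 12 in WT and 6.44, 7.32 and 7.2 in the libraries labelled NFIA-Tg, and these cultures are named by their label below. An exchange of the genotype labels at day 7 was not tested; it would turn the sign of every genotype difference at day 7, and with it the crossings between the days and the day 7 end of both differentiation comparisons. The culture libraries held 16772594 to 28625625 reads recovered from their FPKM, while no depth could be derived for iWAT. Adipocyte markers (Adipoq, Plin1, Fabp4, Lep, Cidec, Pparg and Lipe) summed to 11.96 to 41.3 FPKM at day 0 and to 23705 to 28777 at day 7, and the tissue likewise carried its defining markers at 25492 to 37109. In such bulk RNA, fewer cells of a type and less RNA per cell cannot be told apart.

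Of the 31 genes, 4 are introduced by their promoter windows. These 4 were picked by their results in the comparisons below, so their motifs carry no weight as evidence. RefSeq (build GRCm38.p6) gave windows from 250 bases before to 50 bases after the start for 25 of the 31 genes. Nuclear factor I proteins bind as dimers to a palindrome in which the arm TTGGC faces its own reverse complement across a short spacer, and more weakly to a single arm. Col4a1 and Col4a2, neighbours on chromosome 8 that encode the main type IV chains and are read in opposite directions, come first because they share promoter sequence and yet differed in their calls in iWAT. In the pair, capitals mark the 78 bases (chr8:11312777-11312854) that both windows hold, each written 5′ to 3′ on its own gene's strand. Col16a1 had the largest fall in NFIA-Tg iWAT and Col1a2 the largest fall at day 7. In these windows, capitals mark TTGGC and CCAAT on either strand; read on the other strand they are GCCAA and ATTGG, and GCCAAT holds both motifs at once.
Col4a1 (chr8:11312777-11313076, minus strand): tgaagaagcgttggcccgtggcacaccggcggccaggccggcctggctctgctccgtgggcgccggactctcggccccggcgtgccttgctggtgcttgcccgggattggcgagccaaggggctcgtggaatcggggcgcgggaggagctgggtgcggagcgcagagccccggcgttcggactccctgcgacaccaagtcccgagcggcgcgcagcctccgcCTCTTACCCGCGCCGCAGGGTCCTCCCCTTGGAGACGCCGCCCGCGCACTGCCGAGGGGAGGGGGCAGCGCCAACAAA
Col4a2 (chr8:11312555-11312854, plus strand): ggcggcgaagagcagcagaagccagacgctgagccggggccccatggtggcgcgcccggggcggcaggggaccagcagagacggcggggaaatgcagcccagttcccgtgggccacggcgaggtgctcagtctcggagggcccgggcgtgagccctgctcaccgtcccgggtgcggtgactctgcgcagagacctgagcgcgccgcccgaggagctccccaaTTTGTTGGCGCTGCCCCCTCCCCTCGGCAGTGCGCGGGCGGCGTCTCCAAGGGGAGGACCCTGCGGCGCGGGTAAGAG
Col16a1 (chr4:130047590-130047889, plus strand): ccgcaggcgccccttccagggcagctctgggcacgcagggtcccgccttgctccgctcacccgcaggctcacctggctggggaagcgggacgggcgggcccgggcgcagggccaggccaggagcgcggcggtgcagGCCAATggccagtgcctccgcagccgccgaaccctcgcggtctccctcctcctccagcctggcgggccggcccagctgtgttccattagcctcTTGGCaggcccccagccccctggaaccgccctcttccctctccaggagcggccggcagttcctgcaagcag
Col1a2 (chr6:4505368-4505667, plus strand): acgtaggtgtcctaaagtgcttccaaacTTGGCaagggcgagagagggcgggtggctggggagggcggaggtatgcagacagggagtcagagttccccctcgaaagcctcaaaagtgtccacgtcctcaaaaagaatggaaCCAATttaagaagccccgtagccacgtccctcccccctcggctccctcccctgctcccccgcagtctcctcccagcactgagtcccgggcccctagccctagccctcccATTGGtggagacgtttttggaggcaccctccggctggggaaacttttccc
Within the Col4a1 window TTGGC occurred 4 times, and the shared stretch held 1 of these. Across the collagen genes, 13 of 27 windows (48.1%) held TTGGC on either strand, against 46.7% of all 32851 windows of the table. CCAAT was in 10 of 27 windows (37.0%), against 37.4% of all. The full palindrome was in 0 of 27, and in 0.0365% of all windows. The 4 genes shown were all among the 13 of 25 collagen genes with TTGGC in a window. Such matches describe these letters in these windows and name no bound factor.

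Among the cultures, collagens took the largest part of the RNA at day 0 and the smallest in the day 7 libraries labelled NFIA-Tg. The 31 genes together made up 3.64 to 3.89% of all FPKM in WT cultures at day 0 and 3.46 to 3.6% in those labelled NFIA-Tg. At day 7 these shares were 0.860 to 0.924% and 0.213 to 0.266%. In the separately normalized iWAT tables they were 0.457 to 0.536% in WT and 0.420 to 0.439% in NFIA-Tg. The genotypes did not overlap in any of these pairs. For a single value, 3 samples against 3 cannot give an exact two-sided p under 0.1, so these shares are given as a description.

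The make-up of the collagen RNA also differed between the culture groups, and in part between the genotypes in iWAT. At day 0 fibrillar chains made up 83.8 to 84.6% of collagen FPKM in WT and 80.1 to 80.8% in NFIA-Tg libraries, and Col1a1, Col1a2 and Col3a1 alone made up 75.2 to 76.1% and 71.8 to 72.8%. At day 7 the fibrillar part was 45.7 to 47.3% in WT and 30.4 to 31.9% in the NFIA-Tg libraries. Basement membrane chains went the other way, from 3.51 to 3.7% in WT and 5.03 to 5.3% in NFIA-Tg libraries at day 0 to 20.3 to 21.8% and 30.7 to 32.1% at day 7. In iWAT the basement membrane part (39.7 to 42.7% in WT and 36.6 to 44.4% in NFIA-Tg) was about as large as the fibrillar part (39 to 42.1% and 34.3 to 41.6%), and neither separated the genotypes. The other collagens, type VI for the most part, took 16.8 to 17.2% in WT iWAT and 20.4 to 20.8% in NFIA-Tg iWAT, without overlap. Fibril-associated chains stayed between 0.753 and 2.02% of collagen FPKM in all 18 libraries. Which gene length the iWAT FPKM used is not stated in the sources used here. This limits the comparison of classes within iWAT, and of iWAT with the cultures.

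**Figure D1:**
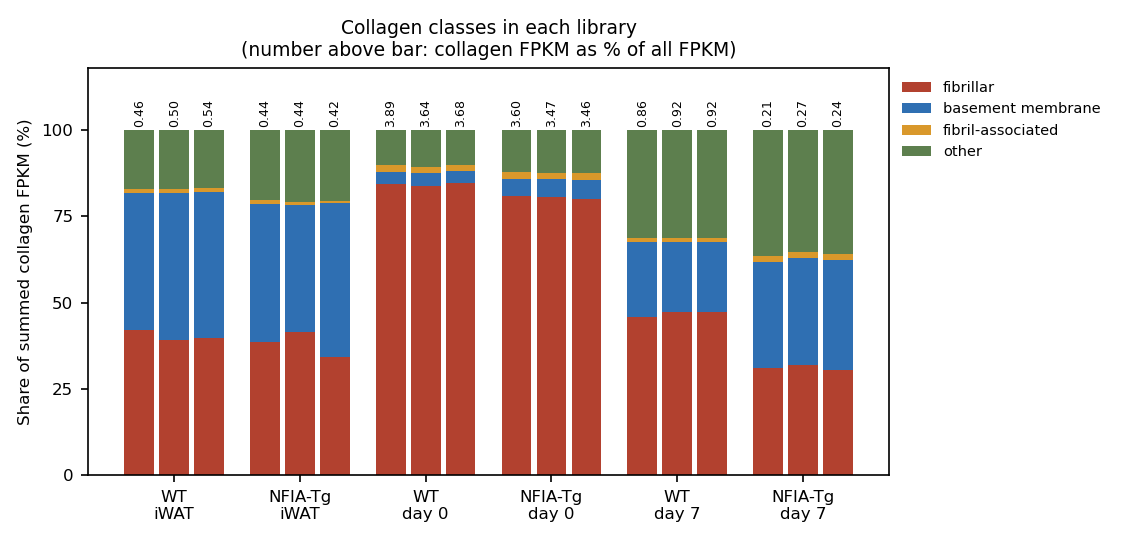
Summed FPKM of the 31 collagen genes in each library by class, as a percent of collagen FPKM, with tissue and cultures normalized in separate tables. The number above each bar is collagen FPKM as a percent of all FPKM. Among the cultures, the collagen share was highest in the 6 day 0 libraries and lowest in the 3 day 7 libraries labelled NFIA-Tg. In these 3, fibrillar and basement membrane chains took similar parts.

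The most abundant chain was not the same in each group. In WT and in NFIA-Tg iWAT the 3 highest mean levels were those of Col4a1, Col3a1 and Col4a2; the sources used here do not say which gene length the iWAT FPKM used, which limits comparisons between genes there. At day 0 the order was Col3a1, Col1a1 and Col1a2, followed by Col6a1, in both genotypes. At day 7 Col6a1, which encodes a type VI chain, was highest in both, with Col3a1 next in WT and Col4a1 next in the libraries labelled NFIA-Tg. Some of the 31 genes were near the threshold. Col6a4 and Col8a2 reached an FPKM of 1 in 3 samples and Col9a3 in 4, while outside the rule Col4a6 reached it in 2 samples, with a highest value of 1.14, and Col6a6 in 1 sample, with 1.21. The other 11 symbols left out were Col4a3, Col4a4, Col9a1, Col9a2, Col10a1, Col13a1, Col17a1, Col19a1, Col22a1, Col25a1 and Col26a1.

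**Figure D2:**
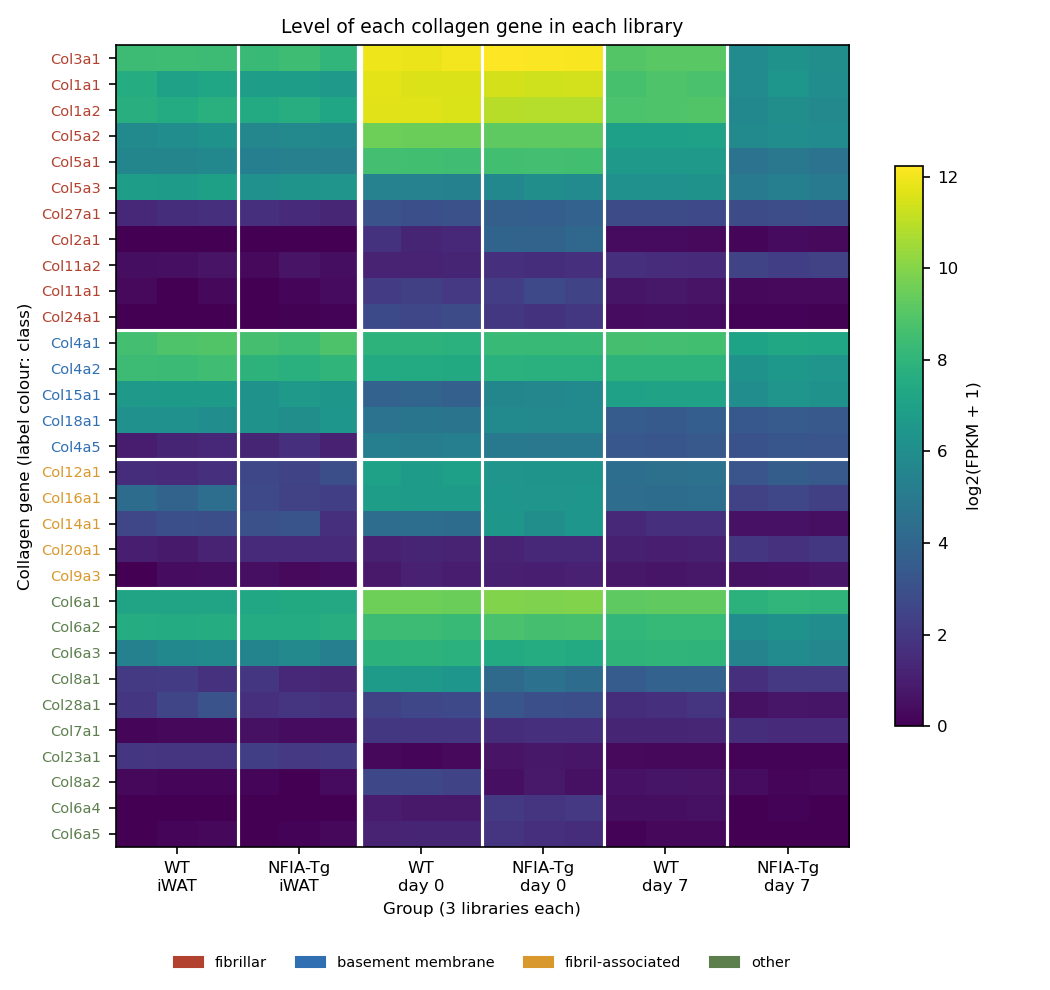
Level of each of the 31 collagen genes in the 18 libraries as log2(FPKM + 1), with genes in rows by class and libraries in columns by group. Tissue and cultures come from tables normalized separately, and the fibrillar chains stand out in the day 0 columns.

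Which collagens changed with genotype and with differentiation was tested with limma on log2(FPKM + 1), across every gene that reached an FPKM of 1 in 3 or more samples of the fit. A gene is called here at a Benjamini-Hochberg adjusted p under 0.05 over all genes tested, and each log2 change is NFIA-Tg minus WT, or day 7 minus day 0, with its SE on that scale. The filter kept 30 of the 31 collagen genes in the cultures (not Col23a1) and 22 in iWAT. Up to 8 of those kept in a comparison stood at an FPKM of 1 or more throughout only 1 of its 2 groups, so that counts over the kept genes describe them and carry no weight as evidence. Col8a2 and Col6a4 reached the threshold in 1 group of 3 libraries each, which also admitted them to the set. They are given by level, and although the counts below include them, their calls are not read as test results. Between genotypes at day 0, 16 of 30 collagen genes were called higher in the NFIA-Tg libraries and 10 lower, where 63.0% of all genes tested were called, 28.1% higher and 34.9% lower. The counts at day 7 were 3 higher and 24 lower, with 80.9% of all genes called, 29.8% higher and 51.1% lower. In iWAT 1 of 22 was higher and 3 were lower, with 11.4% of all genes called, 5.96% higher and 5.44% lower. The median log2 change of the tested collagens was 0.27 at day 0 (−0.03 over all genes), −1.03 at day 7 (−0.17) and −0.18 in iWAT (0.05). Over differentiation 5 of 30 rose and 23 fell in WT, where 81.6% of all genes were called (46.2% higher and 35.4% lower). In the libraries labelled NFIA-Tg 3 rose and 27 fell, where 87.2% were called (45.7% higher and 41.5% lower). The medians were −1.07 (0.09 over all genes) and −1.93 (0.05). The libraries of the 2 groups did not overlap in 26 of 30 collagens between genotypes at day 0 (70.2% of all genes), 26 of 30 at day 7 (81.2%), 30 of 30 over differentiation in WT (84.4%) and 30 of 30 in the NFIA-Tg libraries (87.1%).

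Fibrillar chains fell over differentiation in both genotypes, and at day 7 the libraries labelled NFIA-Tg held far less of them. The fibrillar class gave 2 called higher and 9 lower of 11 over differentiation in WT, and 1 higher and 10 lower in the NFIA-Tg libraries. Between genotypes 6 were higher and 3 lower in the NFIA-Tg libraries at day 0, and 1 higher and 8 lower at day 7. Col1a1 and Col1a2 encode the chains of type I collagen, the main fibril protein of skin, tendon and bone. Col1a1 stood at 3403, 3089 and 3054 FPKM in WT and 2766, 2591 and 2668 in NFIA-Tg libraries at day 0, and at 412, 458 and 426 in WT and 57.9, 84.1 and 63 in NFIA-Tg at day 7. The groups did not overlap at either day, although the day 0 difference was not called (−0.25 ± 0.11, adjusted p = 0.0638), while that at day 7 was (−2.66 ± 0.11, adjusted p = 2.44e-10). Col1a2 stood at 3273, 3150.1 and 3005 in WT and 1923, 1876 and 1863 in NFIA-Tg libraries at day 0, and at 429.5, 469 and 475 in WT and 51, 65.5 and 52.8 in NFIA-Tg at day 7. It was lower in the NFIA-Tg libraries at both days (−0.73 ± 0.08, adjusted p = 7.41e-06, and −3.01 ± 0.08, adjusted p = 9.24e-12). Its mean at day 7 was 8.12 times lower than in WT, and its log2 change was the largest fall of any collagen in that comparison. Col3a1 encodes type III collagen, which makes up the finer fibrils of skin, vessels and loose tissue. Its levels were 3949, 3725 and 4117 in WT and 4826, 4529.8 and 4508 in NFIA-Tg libraries at day 0, and 501, 543 and 555 in WT and 58.5, 75.4 and 65 in NFIA-Tg at day 7. At day 0 Col3a1 was thus the higher in the NFIA-Tg libraries (0.23 ± 0.08, adjusted p = 0.0265), a call that was lost on leaving out the first WT library (adjusted p = 0.0534), the second (0.0941) or NFIA-Tg replicate 1 (0.0852). At day 7 it was lower by a factor of 8.05 (−3.0 ± 0.08, adjusted p = 1.04e-11). Over differentiation Col3a1 fell 7.37-fold in WT and 69.7-fold in the NFIA-Tg libraries, and the difference between these changes was called (−3.23 ± 0.12, adjusted p = 2.39e-10).

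Type V chains, which join type I chains in mixed fibrils, did not move as one. Col5a1 overlapped at day 0 (380.5, 364 and 358 in WT and 373, 384 and 370.4 in NFIA-Tg libraries) and was not called (0.03 ± 0.06, adjusted p = 0.651). At day 7 it stood at 94.2, 97.8 and 98.1 in WT and at 23.9, 28.5 and 24 in the NFIA-Tg libraries, without overlap (−1.89 ± 0.06, adjusted p = 2.39e-11). Col5a2 went from 718 to 122 FPKM on average in WT and from 587 to 59.7 FPKM in the NFIA-Tg libraries, and was lower in the latter at both days (−0.29 ± 0.05, adjusted p = 2.62e-04 and −1.02 ± 0.05, adjusted p = 1.14e-09). Col5a3, the least abundant of the type V chains in the cultures at day 0, was the exception among them in WT. Its FPKM was 42, 41.9 and 41.1 in WT and 51.9, 64.9 and 58.9 in NFIA-Tg libraries at day 0, and 72.1, 72.2 and 74.4 in WT and 32.9, 38.2 and 32.6 in NFIA-Tg at day 7. It rose over differentiation in WT (0.79 ± 0.07, adjusted p = 4.70e-07) and fell in the NFIA-Tg libraries (−0.74 ± 0.07, adjusted p = 6.73e-07), and the groups crossed between the days.

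The rarer fibrillar chains included the largest genotype difference at day 0. Col2a1 encodes type II collagen, the fibril protein of cartilage. It stood at 2.42, 1.37 and 1.56 in WT and at 14.5, 13.9 and 16.3 in NFIA-Tg libraries at day 0 (2.53 ± 0.11, adjusted p = 2.13e-09), and at 0.281 or less in all 6 day 7 libraries. Of 4 markers of cartilage and tendon, Acan was listed at 0 in all day 0 libraries. Scx, below the filter, was lower in the NFIA-Tg libraries, at 0.365, 0.440 and 0.319 in WT and 0.169, 0.0975 and 0.185 in NFIA-Tg. The other markers were higher in the NFIA-Tg libraries. These were Sox9, at 10.1, 9.54 and 10.3 in WT and 13.3, 14.8 and 14.2 in NFIA-Tg libraries, and Tnmd, at 1.63, 2.02 and 1.58 in WT and 7.71, 7.52 and 7.46 in NFIA-Tg. Their part in the Col2a1 difference was not tested. Col11a2, a type XI chain, was the one fibrillar gene called higher in the NFIA-Tg libraries at both days. Its levels were 1.29, 1.3 and 1.38 in WT and 2.2, 2.06 and 2.14 in NFIA-Tg libraries at day 0 (0.43 ± 0.06, adjusted p = 7.80e-05), and 2.1, 1.93 and 1.81 in WT and 4.68, 3.85 and 4.38 in NFIA-Tg at day 7 (0.85 ± 0.06, adjusted p = 7.30e-08). Col11a1, the partner chain, read 3.56, 3.91 and 3.09 in WT and 3.6, 5.52 and 4.66 in NFIA-Tg libraries at day 0, which overlap, and 0.610, 0.715 and 0.578 in WT and 0.191, 0.241 and 0.232 in NFIA-Tg at day 7, which do not. Its day 0 call (0.30 ± 0.11, adjusted p = 0.0299) was lost without WT replicate 1 or 3 or NFIA-Tg replicate 2 or 3, with adjusted p of 0.0586 to 0.142, and at day 7 it was lower (−0.42 ± 0.11, adjusted p = 0.00317). Col24a1 fell from day 0 to day 7 in both genotypes, from 5.77, 5.08 and 6.22 to 0.329, 0.386 and 0.331 in WT and from 2.92, 2.43 and 2.97 to 0.0686, 0.0849 and 0.0584 in the NFIA-Tg libraries. The NFIA-Tg libraries held less of it at both days (−0.83 ± 0.07, adjusted p = 9.99e-07, and −0.33 ± 0.07, adjusted p = 0.00112). Col27a1 was higher in the NFIA-Tg libraries at day 0 (7.33 to 12.3 FPKM, 0.67 ± 0.06, adjusted p = 1.29e-06) and not called at day 7 (0.06 ± 0.06, adjusted p = 0.359).

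**Figure D3:**
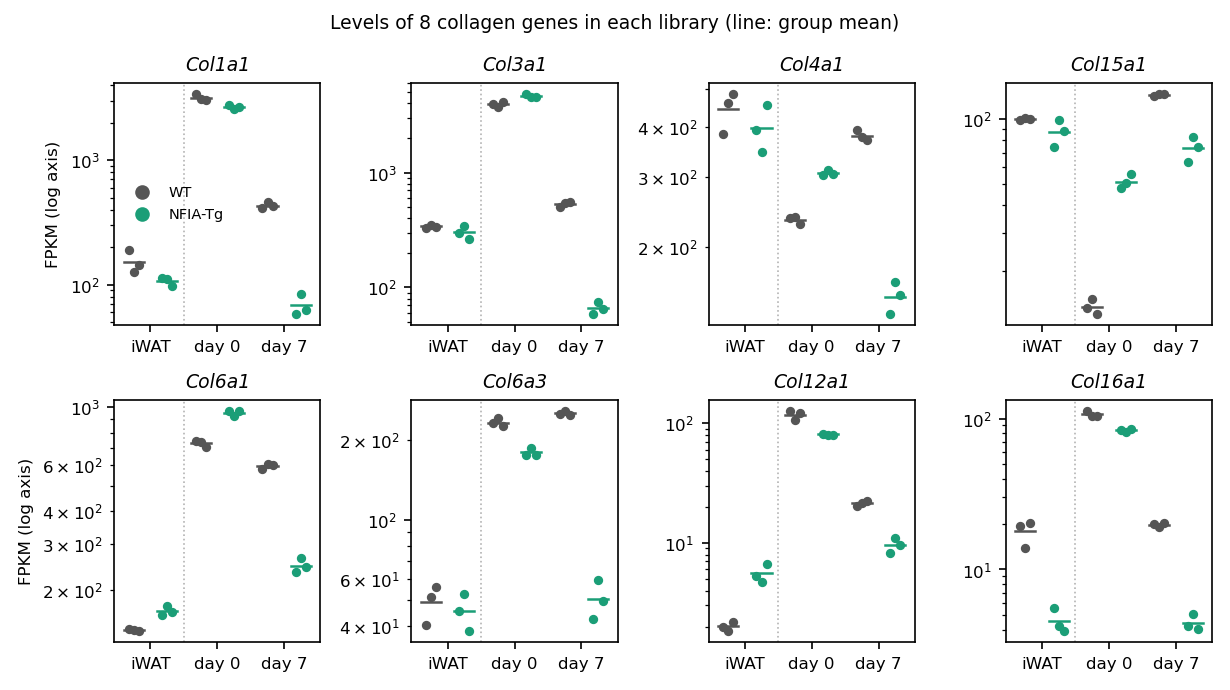
FPKM on a log axis of 8 collagen genes in each library, with points for libraries, lines for group means and a dotted line between tissue and cultures, whose tables were normalized separately. Col1a1 and Col3a1 dropped from day 0 to day 7 and lay lowest in the day 7 libraries labelled NFIA-Tg, and Col15a1 rose from day 0 to day 7.

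Both main type IV chains rose over differentiation in WT and fell in the libraries labelled NFIA-Tg, while Col15a1 rose and Col4a5 and Col18a1 fell in both genotypes. Of 5 basement membrane genes, 3 rose and 2 fell in WT, and 1 rose and 4 fell in the NFIA-Tg libraries. Between genotypes 4 were higher and 1 was lower at day 0, and 5 of 5 were lower at day 7. Col4a1 stood at 236, 237 and 228 in WT and 302, 312 and 305 in NFIA-Tg libraries at day 0, and at 393, 378 and 371 in WT and 136, 163 and 151 in NFIA-Tg at day 7. Col4a2, at 179, 176 and 172 in WT and 221, 217 and 217 in NFIA-Tg at day 0 and 241, 238 and 236 in WT and 73.5, 91.4 and 81.6 in NFIA-Tg at day 7, followed the same order. Both were the higher in the NFIA-Tg libraries at day 0 and the lower at day 7, with no overlap at either day. In WT they rose over differentiation (0.70 ± 0.06, adjusted p = 1.50e-07 for Col4a1, and 0.44 ± 0.06, adjusted p = 2.29e-05 for Col4a2). In the NFIA-Tg libraries they fell (−1.03 ± 0.06, adjusted p = 1.94e-09, and −1.40 ± 0.06, adjusted p = 1.35e-10). Col4a5, which pairs with other minor type IV chains, fell in both genotypes, and its small difference at day 7 (−0.14 ± 0.06, adjusted p = 0.0309) was lost without WT replicate 1 or 3 or NFIA-Tg replicate 1 (adjusted p = 0.0541 to 0.137).

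Types XV and XVIII are basement membrane collagens that carry sugar chains, and their C-terminal fragments include endostatin. Col15a1 had the largest rise over differentiation of any collagen in WT. It stood at 13.4, 14.9 and 12.6 at day 0 and 128, 130.02 and 130.1 at day 7 in WT, a 9.47-fold rise (3.16 ± 0.09, adjusted p = 2.86e-12). In the NFIA-Tg libraries it was at 48.2, 50.5 and 55.5 at day 0, already above WT, and at 63.4, 82.7 and 74.6 at day 7, below WT. The genotype difference was thus called in opposite directions, higher at day 0 (1.84 ± 0.09, adjusted p = 3.40e-09) and lower at day 7 (−0.81 ± 0.09, adjusted p = 1.88e-06). Col18a1 stood at 24.6, 26.4 and 25 in WT and 55.8, 53.7 and 54.7 in NFIA-Tg libraries at day 0 (1.08 ± 0.05, adjusted p = 6.46e-09), and at 11, 10.1 and 11.8 in WT and 9.36, 10.3 and 9.52 in NFIA-Tg at day 7. The day 7 groups overlap, and that call (−0.16 ± 0.05, adjusted p = 0.0187) was lost without WT replicate 3 or NFIA-Tg replicate 1 or 3 (adjusted p = 0.0546 to 0.0894).

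Fibril-associated chains were low next to the fibrils they decorate and mostly fell over differentiation. Of 5 genes, 4 fell and 0 rose in WT, while 4 fell and 1 rose in the NFIA-Tg libraries. The fall of Col9a3, a type IX chain, in WT (−0.21 ± 0.08, adjusted p = 0.0299) was lost without replicate 2 of day 0 (0.151) or of day 7 (0.0998). Between genotypes 1 was higher and 2 were lower at day 0, and 1 was higher and 3 were lower at day 7. Col12a1, which links fibrils in tissues under tension, stood at 126, 107 and 121 in WT and 82, 80.5 and 79.6 in NFIA-Tg libraries at day 0, and at 20.4, 21.7 and 22.5 in WT and 8.21, 11.1 and 9.6 in NFIA-Tg at day 7. Its level was lower in the NFIA-Tg libraries at both days (−0.54 ± 0.08, adjusted p = 1.28e-04, and −1.09 ± 0.08, adjusted p = 9.28e-08). Col16a1 stood at 112, 104 and 104 in WT and 84.6, 81.2 and 85.5 in NFIA-Tg libraries at day 0, and at 20.02, 19.2 and 20.3 in WT and 4.22, 5.05 and 4.04 in NFIA-Tg at day 7. It was likewise lower at both days, by a small step at day 0 (−0.34 ± 0.06, adjusted p = 3.29e-04) and 4.47-fold at day 7 (−1.94 ± 0.06, adjusted p = 2.48e-11). Col14a1, found in dense connective tissue, went the other way at day 0. It stood at 19.5, 20.7 and 18.8 in WT against 88.7, 66.1 and 86 in the NFIA-Tg libraries (1.96 ± 0.10, adjusted p = 1.04e-08), and at day 7 at 1.65, 2.3 and 2.11 against 0.497, 0.517 and 0.407 (−1.03 ± 0.10, adjusted p = 1.25e-06). Its fall over differentiation in the NFIA-Tg libraries (−5.77 ± 0.10, adjusted p = 3.23e-14) was 169-fold, against 9.74-fold in WT. Col20a1 was the one fibril-associated gene higher at day 7, at 2.84, 2.3 and 2.95 in the NFIA-Tg libraries against 1.08, 1.03 and 1.08 in WT (0.84 ± 0.08, adjusted p = 1.09e-06). At day 0 it read 1.18, 1.37 and 1.27 in WT and 1.25, 1.67 and 1.69 in NFIA-Tg libraries, with overlap.

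Type VI collagen forms a beaded filament from chains encoded by Col6a1, Col6a2 and Col6a3, which changed over differentiation in WT by at most 0.29 on the log2 scale. In the remaining class, to which they belong, 8 of 9 fell in WT and 9 of 9 in the NFIA-Tg libraries, and between genotypes 5 were higher and 4 lower at day 0 and 1 was higher and 8 were lower at day 7. Col6a1 stood at 741, 736 and 706 in WT and 965, 928 and 965 in NFIA-Tg libraries at day 0, and at 579, 606 and 601 in WT and 234, 266 and 244 in NFIA-Tg at day 7. Col6a2 stood at 334, 334 and 312 in WT and 421, 389 and 408 in NFIA-Tg at day 0, and at 274, 292 and 295 in WT and 63, 75.2 and 63.6 in NFIA-Tg at day 7. Over differentiation in WT Col6a1 fell by 0.29 on the log2 scale and Col6a2 by 0.19, the latter a call lost without WT replicate 1 or 2 of day 0 or replicate 1 of day 7 (adjusted p = 0.058, 0.0589 and 0.0722). In the NFIA-Tg libraries the falls were larger (−1.94 ± 0.05, adjusted p = 1.21e-12 for Col6a1, and −2.58 ± 0.07, adjusted p = 6.47e-13 for Col6a2). Both genes were higher in the NFIA-Tg libraries at day 0 and lower at day 7, without overlap. Col6a3, the largest of the chains, read 231, 241 and 225 in WT and 176, 187 and 176 in NFIA-Tg libraries at day 0 and 250.2, 256 and 248 in WT and 42.8, 59.4 and 49.8 in NFIA-Tg at day 7. It differed from its partners in being lower in the NFIA-Tg libraries at day 0 already (−0.37 ± 0.09, adjusted p = 0.00259). In WT its change over differentiation was not called (0.11 ± 0.09, adjusted p = 0.242). Col6a4 and Col6a5, alternative type VI chains, were rare. Col6a4 stood at 0.975, 0.770 and 0.763 in WT and 3.19, 2.61 and 3.11 in NFIA-Tg libraries at day 0, and at 0.364, 0.389 and 0.476 in WT and 0.0253, 0.0815 and 0.0321 in NFIA-Tg at day 7. Col6a5 stood at 1.25, 1.37 and 1.41 in WT and 2.64, 2.15 and 2.06 in NFIA-Tg at day 0, and was at 0.215 or less at day 7. The NFIA-Tg libraries of day 0 were the samples that brought Col6a4 past the threshold, so its difference is a description. Col6a5 was called higher in the NFIA-Tg libraries at day 0 and lower at day 7, where the call (−0.22 ± 0.07, adjusted p = 0.0156) was lost without WT replicate 2 (0.051) or 3 (0.0537).

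The short-chain type VIII genes, whose product forms hexagonal lattices under the corneal endothelium, were lower in the NFIA-Tg libraries at day 0. Col8a1 stood at 103, 97.3 and 85.4 in WT and 17.7, 22.7 and 18.7 in NFIA-Tg libraries at day 0 (−2.22 ± 0.12, adjusted p = 1.07e-08), and at 10.9, 13.4 and 13.6 in WT and 2.19, 3.06 and 3.05 in NFIA-Tg at day 7 (−1.86 ± 0.12, adjusted p = 1.42e-08). Col8a2 stood at 5.2, 5.27 and 4.72 in WT and 0.410, 0.767 and 0.460 in NFIA-Tg libraries at day 0, and below 1 in all 6 day 7 libraries. The 3 WT libraries of day 0 were the samples that brought it past the threshold, so this difference is a description. The groups were apart at day 0 for both genes. Col7a1, the chain of the fibrils that anchor epithelia, stood at 2.94, 2.89 and 2.77 in WT and 2.08, 2.2 and 2.26 in NFIA-Tg libraries at day 0, and at 1.43, 1.43 and 1.5 in WT and 2.0, 1.85 and 1.8 in NFIA-Tg at day 7. It was the one collagen called lower in the NFIA-Tg libraries at day 0 and higher at day 7. Its small fall over differentiation in the NFIA-Tg libraries (−0.14 ± 0.05, adjusted p = 0.0171) was lost without NFIA-Tg replicate 3 of day 0 (0.0662) or of day 7 (0.06). Col28a1 did the reverse, at 4.37, 5.05 and 5.44 in WT and 8.6, 6.96 and 6.71 in NFIA-Tg libraries at day 0 and at 2.01, 2.27 and 2.73 in WT and 0.446, 0.699 and 0.592 in NFIA-Tg at day 7. For both genes the groups stayed apart at either day.

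Among the 30 collagens tested in the cultures, 13 were called higher in the NFIA-Tg libraries at day 0 and lower at day 7 (12.3% of all genes), and Col7a1 was called the other way round (6.88%). Of the 13, Col3a1 and Col11a1 lost the day 0 call, and Col18a1 and Col6a5 the day 7 call, when single libraries were left out. Col6a4, also among the 13, is not read as a test result. A further 9 were lower at both days (22.5% of all genes), and Col11a2 was higher at both (10.9%). The difference between the differentiation changes of the genotypes was itself tested as the genotype by differentiation contrast. There 22 collagens were called lower, with a larger fall or smaller rise in the NFIA-Tg libraries, and 5 higher, while 72.1% of all genes were called, 42.6% lower and 29.5% higher. The 3 genes that rose in WT and fell in the NFIA-Tg libraries were Col4a1 (contrast −1.73 ± 0.08, adjusted p = 2.11e-09), Col4a2 (−1.84 ± 0.09, adjusted p = 1.88e-09) and Col5a3 (−1.53 ± 0.10, adjusted p = 5.03e-08), a pattern of 5.23% of all genes. Both genotypes shared 23 collagens that fell (29.1% of all genes) and 2 that rose, Col15a1 and Col11a2 (35.8%).

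**Figure D4:**
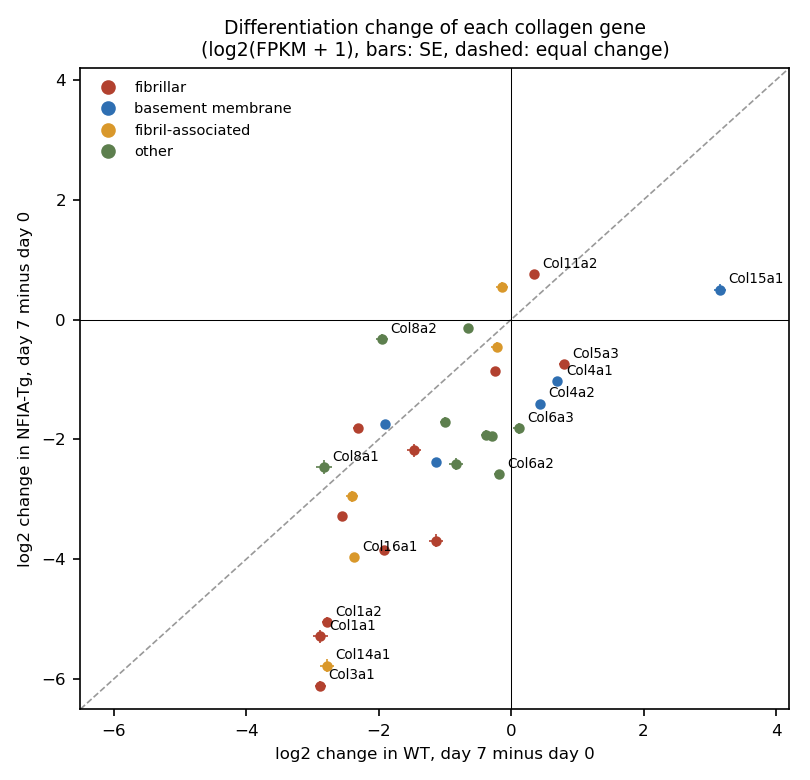
Log2 change from day 0 to day 7 of each of 30 collagen genes in WT (horizontal) and in libraries labelled NFIA-Tg (vertical), with SE bars, colours for class and a dashed line of equal change. Most genes lie below the dashed line, and Col4a1, Col4a2 and Col5a3 lie right of 0 and below 0.

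Markers of other cells also differed between genotypes in the cultures, in both directions. For the counts below, 28.1% of all genes were called higher in the NFIA-Tg libraries and 34.9% lower at day 0. At day 7 these shares were 29.8% and 51.1%. Of 8 fibroblast and progenitor markers (Pdgfra, Pdgfrb, Dpt, Lum, Dcn, Cd34, Ly6a and Pi16), 7 were lower and 1 was higher in the NFIA-Tg libraries at day 7, and their summed level was 633 to 747 FPKM in WT and 171 to 236 in the NFIA-Tg libraries. At day 0 the sum was 1349.95 to 1701 in WT and 2217 to 2767 in NFIA-Tg libraries, with 2 markers higher and 3 lower. Ly6a, a progenitor surface marker, carried that difference, at 1077, 1398 and 1244 in WT and 2492, 1994 and 1937 in NFIA-Tg libraries; the other 7 markers summed to 273 to 303 and 275 to 308, which overlap. Of 6 mural markers tested, 5 were lower and 1 was higher in the NFIA-Tg libraries at day 7, where their summed levels over 7 markers were 94.6 to 111 in WT and 37.2 to 43 in NFIA-Tg libraries, while at day 0 2 were higher and 3 lower. Markers of dividing cells (Top2a, Mki67, Cdk1, Ccnb1 and Birc5) summed to 151 to 153 in WT and 50.9 to 55.8 in NFIA-Tg libraries at day 0, and to 288 to 301 and 94.6 to 99.7 at day 7. All 5 were lower in the NFIA-Tg libraries at both days, and all 5 rose over differentiation in each genotype, where most collagens fell. Such a rise was called for 46.2% of all genes in WT and 45.7% in the NFIA-Tg libraries. The adipocyte sum at day 7 overlapped between genotypes, at 23705 to 28094 in WT and 25252 to 28777 in NFIA-Tg libraries, and most of it was the lipid carrier Fabp4. Without Fabp4 the other 6 markers summed to 3379 to 3459.5 in WT and 1653 to 1851 in NFIA-Tg libraries, and 2 of 6 adipocyte markers tested were lower. These were the hormone gene Adipoq, at 1284, 1275 and 1325 in WT and 259, 276 and 240.4 in NFIA-Tg libraries, and the lipid droplet gene Cidec, at 1371, 1381 and 1297 in WT and 759, 817 and 702 in NFIA-Tg. At day 0, 4 of the 6 were higher and 0 lower. Endothelial and macrophage markers each summed to 9.63 or less in every culture library. The part of these cell types in the collagen differences was not tested.

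In iWAT the genotypes differed in 4 collagens, in which NFIA-Tg had less Col16a1, Col5a3 and Col4a2 and more Col12a1. Col16a1 stood at 19.3, 13.9 and 20.3 FPKM in WT and 5.52, 4.23 and 3.89 in NFIA-Tg, which is 3.93-fold lower on average (−1.76 ± 0.17, adjusted p = 0.00114). Col12a1 went the other way, from 2.0, 1.82 and 2.2 in WT to 5.26, 4.75 and 6.69 in NFIA-Tg (1.12 ± 0.15, adjusted p = 0.00397). These calls were kept when any 1 library was left out. Col5a3 stood at 110.04, 106 and 121 in WT and 71.8, 80.9 and 81.5 in NFIA-Tg, without overlap (−0.52 ± 0.10, adjusted p = 0.0168). This call was lost without WT replicate 3 (0.0726) or NFIA-Tg replicate 2 (0.0521).

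Of the type IV pair that shares promoter sequence, 1 chain was called in iWAT and the other was not. Col4a2 stood at 331, 323 and 353 in WT and 238, 217 and 255 in NFIA-Tg (−0.51 ± 0.11, adjusted p = 0.0224), and the groups did not overlap. Col4a1 stood at 384, 461 and 484 in WT and 393, 347 and 455 in NFIA-Tg, which overlap (−0.15 ± 0.14, adjusted p = 0.518). The ratio of Col4a1 to Col4a2 FPKM, whose level rests on the gene lengths the authors used, was 1.16 to 1.43 in WT and 1.6 to 1.79 in NFIA-Tg iWAT. This ratio was also the higher in the NFIA-Tg libraries of the cultures, without overlap. It was 1.32 to 1.35 in WT and 1.37 to 1.44 in NFIA-Tg at day 0, and 1.57 to 1.63 and 1.79 to 1.85 at day 7. The Col4a2 call was lost on leaving out the second WT library (0.0576), the third (0.0932) or NFIA-Tg replicate 2 (0.0924), and the difference between the changes of the chains was not tested.

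No call was made for the chains of type I and type III collagen in iWAT. Col1a1 stood at 189, 126 and 144 in WT and 113, 109.99 and 97.6 in NFIA-Tg, apart but not called (−0.49 ± 0.15, adjusted p = 0.0756). Col1a2 was at 202, 181 and 217 in WT and 177, 198 and 146 in NFIA-Tg (−0.21 ± 0.14, adjusted p = 0.355), and Col3a1 at 331, 350.2 and 339 in WT and 298, 346 and 265 in NFIA-Tg (−0.17 ± 0.12, adjusted p = 0.387), each with overlap. Col6a1 was at 143, 141 and 139 in WT and 161, 173 and 165 in NFIA-Tg, where the direction was upwards and without a call (0.24 ± 0.09, adjusted p = 0.128). Col15a1 and Col18a1 had means of 99.95 to 87 FPKM and of 68.9 to 76.2 FPKM from WT to NFIA-Tg, without calls. Col23a1, a transmembrane collagen, was measured above the filter only in iWAT, at 2.85, 2.62 and 2.71 in WT and 3.81, 3.09 and 3.49 in NFIA-Tg (0.26 ± 0.13, adjusted p = 0.227). The genotypes did not overlap in 11 of the 22 collagens tested, against 34.4% of all genes. A p above the threshold does not show that levels were alike, and with 3 libraries a group the precision is limited by their spread.

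The cell type markers of iWAT also differed between genotypes, where 5.96% of all genes were called higher in NFIA-Tg and 5.44% lower. Of 8 endothelial markers 5 were lower in NFIA-Tg and 0 higher, with a sum of 733 to 775 in WT and 372 to 515 in NFIA-Tg. Of 8 fibroblast and progenitor markers 1, Dpt, was higher and 0 lower, and the sum was 1281 to 1796 in WT and 2547 to 3039.7 in NFIA-Tg. Dpt carried most of that difference, at 574, 997 and 884 in WT and 1750, 1535 and 2292 in NFIA-Tg. Skeletal muscle markers summed to 123 to 182 in WT and 12.1 to 39.99 in NFIA-Tg, with 1 of 2 tested lower. Acta1 carried most of this sum, at 181, 121 and 102 in WT and 21.6, 11.4 and 33.2 in NFIA-Tg. Ckm was listed at 0, 0 and 16.4 in WT and at 0, 0 and 2.26 in NFIA-Tg. Scx, a tendon marker, stood at 1.31, 1.24 and 0.739 in WT and 12.8, 7.85 and 6.6 in NFIA-Tg. Acan and Tnmd were listed at 0 in all 6 libraries. Sox9, below the filter, stood at 0, 0 and 0.117 in WT and 0.111, 0.318 and 0.0982 in NFIA-Tg. Macrophage, mural, Schwann and adipocyte sums overlapped, but 1 gene of each of the last 3 lists was higher in NFIA-Tg. The mural Cspg4 stood at 6.92, 17.6 and 16.1 in WT and 41.3, 39 and 39.2 in NFIA-Tg, the Schwann marker S100b at 6.63, 10.3 and 8.03 in WT and 29.5, 25 and 48.6 in NFIA-Tg, and the lipid droplet gene Plin1 at 894, 929.6 and 939 in WT and 1421, 1282 and 1188 in NFIA-Tg. Other adipocyte markers went the other way without a call. Adipoq stood at 2919, 2860 and 2929 in WT and 2048, 2022 and 2274 in NFIA-Tg. Lipe stood at 1067, 1004 and 1002 in WT and 790, 828 and 712 in NFIA-Tg, and neither gene overlapped. Most of the adipocyte sum was Fabp4, and without it the sums were 8347 to 8805 in WT and 6952 to 8526 in NFIA-Tg. Markers of dividing cells summed to 7.25 to 13.3 in WT and 3.14 to 5.42 in NFIA-Tg, without overlap, and 1 of 4 tested was lower. Epithelial markers were at 0 in 5 libraries and summed to 0.785 in the other. What part these cells had in the collagen calls was not tested.

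**Figure D5:**
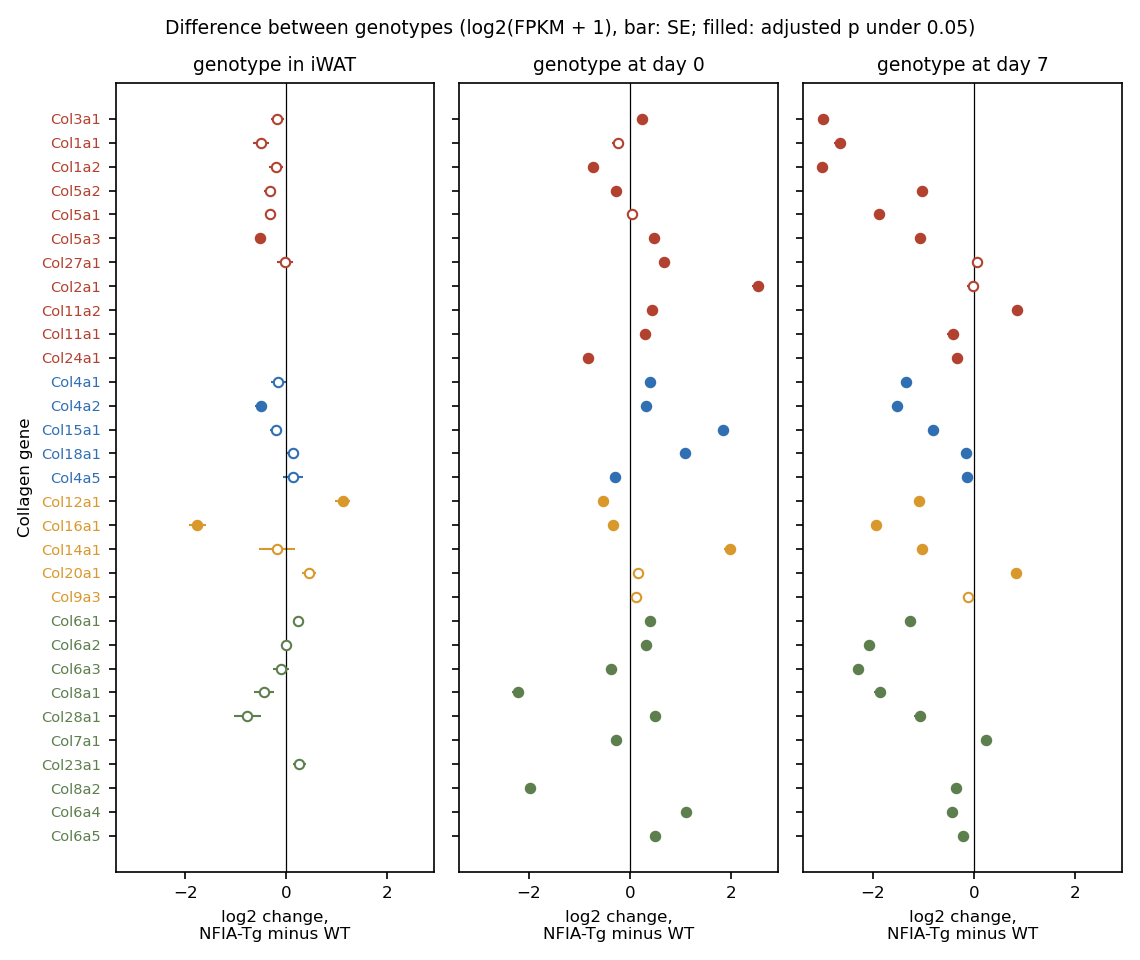
Log2 change, NFIA-Tg minus WT, with its SE for each collagen gene in iWAT, at day 0 and at day 7, coloured by class, with filled points for an adjusted p under 0.05. Most points lie left of 0 at day 7, both directions occur at day 0, and 4 points are filled in iWAT.

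Whether the genotype difference in iWAT differed from that at day 7 was tested in a fit of its own, in which no level is compared across tables. Of 24 collagens tested, 15 had a more positive genotype change in iWAT than at day 7 and 2 a more negative one, where 54.3% of all genes were called, 35.8% with a more positive and 18.5% with a more negative change. The median difference was 0.77, against 0.18 over all genes. It was largest for Col3a1 (2.82 ± 0.15, adjusted p = 6.73e-08), Col1a2 (2.80 ± 0.17, adjusted p = 1.63e-07) and Col12a1 (2.21 ± 0.17, adjusted p = 8.77e-07). Col12a1 was the one collagen called in opposite directions, higher in NFIA-Tg iWAT and lower in the day 7 libraries labelled NFIA-Tg (2.29% of all genes). The 3 collagens called lower in both were Col16a1, Col5a3 and Col4a2 (2.82% of all genes). For Col16a1 the difference between the 2 changes was 0.18 ± 0.20 (adjusted p = 0.459), not called. The negative pair was Col11a2 (−0.92 ± 0.16, adjusted p = 3.75e-04) and Col20a1 (−0.38 ± 0.14, adjusted p = 0.0378), and Col20a1 lost its call when single libraries were left out, in 9 of the 12 cases. Nfia itself was higher in NFIA-Tg iWAT and lower in the libraries labelled NFIA-Tg at day 7, so that the comparison sets unlike levels of the targeted gene beside each other.

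Chains of 1 collagen type can join in 1 trimer, and the ratio of their FPKM within a library shows whether their RNA kept pace. Type I collagen holds a pair of Col1a1 chains to each Col1a2 chain. The ratio of Col1a1 to Col1a2 was 0.981 to 1.04 in WT and 1.38 to 1.44 in NFIA-Tg libraries at day 0, and 0.896 to 0.978 in WT and 1.14 to 1.28 in NFIA-Tg at day 7. In iWAT it was 0.665 to 0.938 in WT and 0.555 to 0.666 in NFIA-Tg. The NFIA-Tg libraries were thus the higher in the cultures, while in iWAT the ranges met and NFIA-Tg lay at the lower end. For type VI, the ratio of Col6a1 to Col6a2 was 2.2 to 2.26 in WT and 2.29 to 2.38 in NFIA-Tg libraries at day 0, and 2.04 to 2.11 in WT and 3.54 to 3.84 in NFIA-Tg at day 7. The ratio of Col6a1 to Col6a3 was 3.05 to 3.21 in WT and 4.97 to 5.49 in NFIA-Tg at day 0, and 2.31 to 2.42 in WT and 4.48 to 5.47 in NFIA-Tg at day 7. Col6a1 therefore stood higher against both partners in the NFIA-Tg libraries. The ratio of Col5a1 to Col5a2 went opposite ways, from 0.504 to 0.516 at day 0 to 0.762 to 0.809 at day 7 in WT and from 0.634 to 0.649 to 0.405 to 0.448 in the NFIA-Tg libraries. Col3a1 and Col5a2 are neighbours on chromosome 1, and the ratio of the first to the second was 4.27 to 4.5 in WT and 1.04 to 1.19 in NFIA-Tg libraries at day 7, and 5.27 to 5.8 in WT and 7.65 to 8.2 in NFIA-Tg at day 0. These ratios are descriptions with no test.

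A collagen chain is hydroxylated and folded in the endoplasmic reticulum, trimmed outside the cell, bound by receptors and in time degraded, and most genes for these steps fell together with the chains over differentiation. Of 16 genes for modification and folding tested, 16 fell over differentiation in WT, and 14 fell and 1 rose in the NFIA-Tg libraries. Over all genes, 35.4% were called lower and 46.2% higher in WT, and 41.5% and 45.7% in the NFIA-Tg libraries. Serpinh1, the collagen chaperone, went from 749 to 239 FPKM in WT and from 797 to 158 FPKM in the NFIA-Tg libraries (−1.64 ± 0.04, adjusted p = 1.40e-12, and −2.33 ± 0.04, adjusted p = 2.91e-14). Fkbp10, another chaperone, fell in WT (120.1 to 34.2 FPKM, −1.78 ± 0.05, adjusted p = 3.31e-12). Between genotypes at day 7, 13 of the 16 were lower in the NFIA-Tg libraries (51.1% of all genes) and 2 were higher (29.8%). Crtap and P3h3, parts of prolyl 3-hydroxylation, were lower (69.4 to 19.8 FPKM and 16.1 to 4.41 FPKM, with −1.76 ± 0.06, adjusted p = 9.86e-11 and −1.66 ± 0.06, adjusted p = 4.78e-11). The hydroxylases Plod1 for lysine and P4ha1 for proline were the exceptions. Plod1 stood at 37.9, 34.7 and 29 in WT and 99, 109 and 108 in NFIA-Tg libraries (1.61 ± 0.08, adjusted p = 1.40e-09), and P4ha1 at 59.8, 55.6 and 46.7 in WT and 97.6, 99 and 99.5 in NFIA-Tg (0.86 ± 0.09, adjusted p = 9.72e-07). At day 0, 11 of the 16 were lower, with P4ha3 (28.6 to 13.8 FPKM, −1.01 ± 0.09, adjusted p = 6.23e-07) and Colgalt1 (68.6 to 54.1 FPKM, −0.34 ± 0.04, adjusted p = 7.87e-06) at the smallest adjusted p, and 1, Plod3, was higher (95.8 to 129 FPKM, 0.42 ± 0.08, adjusted p = 4.10e-04). The shares over all genes at day 0 were 34.9% lower and 28.1% higher. In iWAT 2 of 16 were lower and 0 higher, Plod3 (70.5 to 50.9 FPKM, −0.46 ± 0.09, adjusted p = 0.0157) and P3h1 (16.2 to 11.7 FPKM, −0.43 ± 0.10, adjusted p = 0.0361). There 5.44% of all genes were lower and 5.96% higher.

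Genes for trimming of the propeptides were lower in 6 of 6 tested in the NFIA-Tg libraries at day 7, against 51.1% of all genes. Pcolce, which enhances cleavage of the C-terminal propeptide, stood at 397, 413 and 418 in WT and 76.6, 84.5 and 72.6 in NFIA-Tg libraries (−2.38 ± 0.05, adjusted p = 2.55e-12). Adamts2, the N-propeptidase of fibrillar procollagens, stood at 25.9, 27.2 and 29.5 in WT and 4.38, 5.34 and 4.42 in NFIA-Tg (−2.32 ± 0.06, adjusted p = 8.99e-12). At day 0, 3 were higher (28.1% of all genes) and 2 lower (34.9%). Adamts2 was among the higher (91.9 to 188 FPKM, 1.02 ± 0.06, adjusted p = 3.82e-08), as was Pcolce2 (1.59 to 5.16 FPKM, 1.25 ± 0.08, adjusted p = 3.52e-08). In iWAT 1 of 5 was higher (5.96% of all genes) and 1 lower (5.44%). These were Pcolce (127, 87.6 and 103 in WT and 176, 149 and 215 in NFIA-Tg, 0.76 ± 0.17, adjusted p = 0.0298) and Adamts2 (30.01, 28.9 and 31 in WT and 16, 17.4 and 12.2 in NFIA-Tg, −0.95 ± 0.14, adjusted p = 0.005). Over differentiation 5 of 6 fell and 1 rose in WT (35.4% and 46.2% of all genes), and 6 of 6 fell in the NFIA-Tg libraries (41.5%).

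Among collagen receptors, 2 integrin chains differed in opposite directions at day 0. Itga11 stood at 41.2, 37.1 and 43.6 in WT and 8.03, 6.66 and 6.85 in NFIA-Tg libraries at day 0 (−2.35 ± 0.08, adjusted p = 2.20e-10). Itga1 was higher in the NFIA-Tg libraries at day 0 (7.11, 6.23 and 7.57 in WT and 20.4, 17.3 and 18 in NFIA-Tg, 1.30 ± 0.09, adjusted p = 1.24e-07) and lower in NFIA-Tg iWAT (13.2, 13.9 and 14 in WT and 5.47, 4.66 and 4.22 in NFIA-Tg, −1.35 ± 0.12, adjusted p = 8.75e-04). In counts, the receptors had 4 higher and 3 lower of 7 at day 0, 2 higher and 3 lower at day 7, and 1 lower of 7 in iWAT. The shares of all genes called higher and lower were 28.1% and 34.9% at day 0 and 29.8% and 51.1% at day 7. In iWAT these shares were 5.96% and 5.44%. Over differentiation 5 of 7 fell in WT and 6 of 7 in the NFIA-Tg libraries, and Mrc2, the endocytic collagen receptor, was among them (126 to 20.8 FPKM in WT and 82.5 to 7.87 FPKM in the NFIA-Tg libraries, −2.54 ± 0.05, adjusted p = 3.39e-13 and −3.24 ± 0.05, adjusted p = 1.91e-14). The degradation list holds enzymes and their inhibitors, of which 4 enzymes (Mmp2, Mmp9, Mmp14 and Ctsk) and 3 inhibitors (Timp1, Timp2 and Timp3) were tested. All 7 fell over differentiation in each genotype, where 35.4% of all genes fell in WT and 41.5% in the NFIA-Tg libraries. At day 7, 3 of the 4 enzymes and 3 of the 3 inhibitors were lower in the NFIA-Tg libraries. The enzymes included Mmp14, a membrane-bound collagenase (41.8, 45.2 and 49 in WT and 11.1, 12.2 and 11.2 in NFIA-Tg libraries, −1.89 ± 0.06, adjusted p = 2.80e-11), and the gelatinase Mmp2 (70.1 to 13.6 FPKM, −2.29 ± 0.07, adjusted p = 3.21e-11). Timp2 stood at 77.3, 86 and 88.5 in WT and 9.23, 11.6 and 7.75 in NFIA-Tg libraries at day 7 (−3.02 ± 0.10, adjusted p = 4.21e-11). At day 0, 1 enzyme and 1 inhibitor were higher, and 2 enzymes and 2 inhibitors lower. In iWAT limma called 0 of 7, and none of the 7 unadjusted p-values was under 0.05 (0 genes).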

How the data were processed

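The 18 samples were grouped from their labels. Libraries were stranded, per the labels' protocols. STAR 2.7.8a, StringTie 2.1.1 and the build mm9 appear in the submitters' processing notes with no role. The sources used here do not give the annotation, strand setting or counting rule. The authors deposited 1 table per sample with an FPKM and a length for each gene. Entries that share a symbol in iWAT were added up. Multiplied by length, culture FPKM gave whole reads for 100% of values within a tolerance of 0.01; the iWAT lengths did not allow this.

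Values of log2(FPKM + 1) were fitted with limma 3.58.1 in R 4.3.3 (eBayes, trend on), for genes that reached an FPKM of 1 in 3 or more fitted samples. P-values are two-sided and adjusted (Benjamini-Hochberg) over all genes tested, and calls are at 0.05. Fold changes on this scale understate changes of low genes. The fits were iWAT (6 samples, 4 residual degrees of freedom), cultures (12 samples, 8) and iWAT with day 7 (12 samples, 8). The scripts were tested on simulated data. The collagen genes, classes and lists were chosen with earlier results of these data known. Values by sample are given for the 2 most abundant genes of each class, the 3 largest called rises and falls of each comparison (group mean of at least 1 FPKM) and genes called in opposite directions; pathway genes are the 2 with the smallest adjusted p in each direction. A few others (Col4a5, Col5a1, Col5a2, Col6a3, Col23a1 and Col27a1) were added after their values were seen.

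Exons of some collagens overlap other genes in GENCODE M21, by 234 bases for Col9a3 with Tcfl5, 113 for Col5a1, 162 for Col6a4 and 22 for Col4a1 with Col4a2 on opposite strands, and by 141 for Col3a1, 79 for Col20a1 and 36 for Col7a1 on the same strand; their values are uncertain to that extent. Alternatives were a pseudocount of 0.1, other filters, median-of-ratios or TPM scaling, no trend, a replicate block, all 18 samples in 1 fit, voom on recovered reads, the highest entry per symbol and leaving out each library.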

Additional observations from a re-analysis of the deposited data

Results flagged for a closer look

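These collagens had genotype effects that differed between conditions by a test of the difference itself (limma, two-sided, adjusted over all genes), on the log2(FPKM + 1) scale. No explanation was tested. Between day 7 and day 0, the genotype effect was more negative at day 7 for the fibrillar Col3a1 (−3.23 ± 0.12), Col5a3 (−1.53 ± 0.10) and Col11a1 (−0.72 ± 0.15), with adjusted p of 2.39e-10, 5.03e-08 and 0.00106. Of the basement membrane chains the same held for Col4a1 (−1.73 ± 0.08), Col4a2 (−1.84 ± 0.09), Col15a1 (−2.65 ± 0.12) and Col18a1 (−1.24 ± 0.08), with adjusted p of 1.52e-09 to 2.19e-08. It also held for Col14a1 (−2.99 ± 0.15), Col6a1 (−1.65 ± 0.07), Col6a2 (−2.39 ± 0.09), Col6a5 (−0.70 ± 0.10) and Col28a1 (−1.57 ± 0.15). A more positive effect at day 7 was found for Col7a1 (0.52 ± 0.07) and Col20a1 (0.68 ± 0.12). Col6a4 and Col8a2 reached an FPKM of 1 in only 1 group of 3 libraries, which brought them into the set. Their contrasts (−1.54 ± 0.10 and 1.63 ± 0.12) are therefore descriptions and not read as test results. Col11a1 and Col6a5 reached that level only in the 6 day 0 libraries, and Col6a5 had 1 to 3 reads in each day 7 library labelled NFIA-Tg. The contrasts of Col11a1 and Col6a5 are likewise descriptions.

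Between iWAT and day 7, the genotype effect was more positive in iWAT for Col12a1 (2.21 ± 0.17), Col1a2 (2.80 ± 0.17) and Col3a1 (2.82 ± 0.15), and more negative for Col11a2 (−0.92 ± 0.16) and Col20a1 (−0.38 ± 0.14). Col11a2 was not past the filter in iWAT alone, and its levels there stayed below 1 FPKM in all 6 libraries.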

How the results depend on the processing

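In all, 159 called changes of single collagen genes were recomputed under up to 21 other settings, and 145 kept their direction and call in each of those that gave a value. The others lost their call in at least 1 setting, most of them with a single library left out; Col28a1 and Col4a5 lost theirs at day 0 only with all 18 samples in 1 fit. Of 3246 recomputed values, 52 fell short of the threshold and 2 changed sign, both for the genotype by differentiation contrast of Col24a1 (0.49), which was −0.38 with a pseudocount of 0.1 (adjusted p = 0.0679) and −1.19 with voom on recovered reads (adjusted p = 0.0122). The cause was not tested. In iWAT the count of 1 collagen higher became 0 with a filter at FPKM 5, 2 without the trend and 5 with all 18 samples in 1 fit, and the count of 3 lower became 8 in that fit and 1 to 4 with a library left out. With the filter at FPKM 5, fewer genes were tested, and the collagens called higher became 0 at day 7, 1 over differentiation in NFIA-Tg and 1 in the genotype by differentiation contrast, and the 2 with a more negative genotype effect in iWAT than at day 7 became 0. These 2 became 1 with a pseudocount of 0.1 or TPM scaling and 1 to 2 with a library left out. Col18a1 and Col4a5 lost their day 7 calls with median-of-ratios scaling (0.623 and 0.758).

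Over all genes, median-of-ratios scaling moved the median change at day 7 from −0.17 to −0.06 and the iWAT against day 7 contrast from 0.18 to 0.0063, and TPM scaling moved that of differentiation from 0.09 to −0.06 in WT and from 0.05 to −0.18 in NFIA-Tg. Calls over all genes split 739 higher to 674 lower in iWAT (589 to 845 with median-of-ratios scaling), 5796 to 4450 over differentiation in WT (4632 to 5492 with TPM), 5741 to 5209 in NFIA-Tg (4646 to 6308) and 4690 to 2430 in the iWAT against day 7 contrast (3328 to 3310 with median-of-ratios scaling). In iWAT 1413 genes were called, against 5141 with all 18 samples in 1 fit and 934 with no filter; the count fell to 814 and 617 without WT replicate 2 or 3, and to 638 and 745 without NFIA-Tg replicate 2 or 3. Deviations of same-numbered libraries correlated at 0.0072 to 0.115 in iWAT and −0.108 to 0.156 in the cultures. A library matched its own number best in 4 of 6 and 9 of 36 cases. With 3 libraries a group, such values cannot show whether the numbers pair the samples, which were fitted as unpaired. With the replicate block, 1 collagen was higher and 3 lower in iWAT, 16 and 10 at day 0, 3 and 24 at day 7, 5 and 23 over differentiation in WT, 3 and 27 in NFIA-Tg, 6 and 22 in the genotype by differentiation contrast, and 15 and 2 between iWAT and day 7; over all genes it called 1282 in iWAT. Voom could be run only in the cultures, and the highest entry per symbol applied only where iWAT tables entered. Collagens with few reads (Col6a5 had 1 to 548 per culture library) are the least precise.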
